A study of Mus musculus with 18 samples.

Results

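Of the 10965 genes in the table, 92 became much more abundant in control (Ctrl) mouse embryonic stem cells (ESCs) over 6 days of neural differentiation (ND) while showing no such gain in Zeb2 knockout (KO) cells. They were chosen by their mean log2(TPM + 1) in each group of 3 libraries, where TPM is a read count scaled by gene length and library total. A member had to be at least 3 higher in Ctrl at d6 than in Ctrl at d0, less than 0.5 higher in KO at d6 than in KO at d0, and less than 1 higher in KO at d4 than in KO at d0. A further 384 genes met the first of these limits without meeting both of the others, which made 476 genes in all. These measures chose the members, so differences between d0 and d6, and those of KO cells between d0 and d4, are given below as a description and without a test. Only the Ctrl libraries of d4 were not used by the choice, and the tests below rest on them.

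Zeb2 encodes a zinc finger and homeodomain transcription factor that binds paired CACCT-type DNA motifs and acts mostly as a repressor. ESCs in 2i + LIF are held in a ground state of pluripotency. When they aggregate as embryoid bodies (EBs) and receive retinoic acid, they take on the patterning genes of the neural tube, among them the Hox genes, which mark levels of the hindbrain and spinal cord. Retinoic acid reaches its nuclear receptors with the help of binding proteins such as Crabp1, and its level is limited by enzymes such as Cyp26b1.

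The series holds 18 RNA-seq libraries, 3 for each genotype at d0, d4 and d6, from mouse ESCs of strain CD1. Ctrl cells carried floxed Zeb2 alleles (Zeb2 fl/fl) and KO cells were Zeb2 -/-, made by passing Cre into floxed ESCs, and the sources used here do not give the clone that was sequenced. At d0 both genotypes were ground-state ESCs in 2i + LIF, at d4 they were EBs after culture with 15% serum, and at d6 they were EBs kept from d4 in N2B27 medium with 500 nM retinoic acid. In Ctrl cells the d4 and d6 stages stand for multipotent and early neural progenitors, and the labels give KO cells the same stage names by day. Reads on the 10965 genes, recovered from the TPM values, ranged from 9622622 to 15617675 per library, and the 3 libraries of a group came from separate experiments. Zeb2 itself measured 7.81, 7.53 and 7.65 TPM in the Ctrl d6 libraries and 0.717, 0.594 and 0.733 TPM in the KO d6 libraries. EBs are mixtures of cells, so in these bulk samples fewer cells of a type and less RNA per cell cannot be told apart.

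The promoters of 4 members are shown because they bear on the motif that Zeb2 is known to bind. RefSeq windows of 300 bases (build GRCm38.p6), from 250 before to 50 after a transcription start, were found for 58 of the 92 genes and gave 66 windows. Nhlh1, a neurogenic basic helix-loop-helix factor, and Nepn, a secreted leucine-rich repeat protein, hold a CACCTG with another CACCT within 45 bases. Hoxb4 and Dbx1, both among the 20 members with the largest gain in Ctrl, hold no CACCTG in this window. Capitals mark CACCTG on either strand, and each sequence runs 5′ to 3′ along the strand of its gene. Nhlh1 is at chr1:172057547-172057846 on the minus strand, Nepn at chr10:52391358-52391657 on the plus strand, Hoxb4 at chr11:96318017-96318316 on the plus strand and Dbx1 at chr7:49636786-49637085 on the minus strand.
Nhlh1: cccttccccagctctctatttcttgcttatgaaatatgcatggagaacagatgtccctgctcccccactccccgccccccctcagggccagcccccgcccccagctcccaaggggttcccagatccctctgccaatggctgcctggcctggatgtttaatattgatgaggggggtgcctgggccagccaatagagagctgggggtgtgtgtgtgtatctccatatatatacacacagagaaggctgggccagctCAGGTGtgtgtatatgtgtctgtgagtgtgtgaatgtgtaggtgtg
Nepn: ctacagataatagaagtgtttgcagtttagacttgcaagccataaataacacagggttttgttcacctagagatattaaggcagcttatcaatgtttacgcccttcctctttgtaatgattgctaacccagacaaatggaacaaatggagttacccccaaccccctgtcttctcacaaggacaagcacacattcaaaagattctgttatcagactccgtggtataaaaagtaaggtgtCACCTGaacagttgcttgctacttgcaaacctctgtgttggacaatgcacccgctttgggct
Hoxb4: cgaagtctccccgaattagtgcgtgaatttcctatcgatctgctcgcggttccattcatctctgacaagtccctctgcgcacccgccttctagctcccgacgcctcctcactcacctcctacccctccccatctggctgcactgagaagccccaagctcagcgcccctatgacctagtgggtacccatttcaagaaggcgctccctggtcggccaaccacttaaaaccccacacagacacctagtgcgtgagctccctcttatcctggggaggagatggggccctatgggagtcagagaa
Dbx1: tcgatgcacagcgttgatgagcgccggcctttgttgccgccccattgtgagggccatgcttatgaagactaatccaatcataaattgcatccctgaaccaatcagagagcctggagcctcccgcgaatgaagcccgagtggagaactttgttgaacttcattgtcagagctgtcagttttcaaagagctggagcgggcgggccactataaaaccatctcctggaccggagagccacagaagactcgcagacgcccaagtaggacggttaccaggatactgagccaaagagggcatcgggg

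CACCTG was searched on both strands and was found in 8 of the 66 member windows, which is 12.1%, beside 18.9% of the windows of all genes in the table and 20.2% of the 32851 mouse windows. The genes were AA623943, Chgb, Gm26911, Nepn, Nhlh1, S100g, Spp2 and Wfikkn1. The paired form, a CACCTG with a further CACCT that does not overlap it and lies no more than 45 bases away, was in 3 windows, those of Gm26911, Nepn and Nhlh1, which is 4.55% beside 4.25% of all mouse windows. None of the windows of Hoxa2, Hoxa3, Hoxa5, Hoxb4, Hoxb8, Hoxc4 and Hoxd3 held CACCTG. The core motif of the retinoic acid receptors, AGGTCA, was in 15 of the 66 windows (22.7%), in 12.4% of the windows of all genes in the table and in 16.3% of all mouse windows. Its direct repeat with 5 bases between (DR5) was in none of the 66 and in only 3 of the 32851 mouse windows. A match is a description of these letters only, and matches were allowed to overlap one another except within the paired form.

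In Ctrl, the members were on average present at very low levels in ground-state cells and at moderate levels at d6. The median over members of the Ctrl group mean went from 0.309 TPM (d0) over 6.29 TPM (d4) to 31.8 TPM (d6). In KO cells the same medians were 0.343, 0.496 and 0.485 TPM. At d6 in Ctrl the levels ran from 7.31 TPM for Robo2, a receptor for Slit guidance cues, to 3296 TPM for Crabp1. All 92 had at least 28 reads in each Ctrl d6 library, and the coefficient of variation over the 3 libraries had a median of 9.50%, from 1.28% for Hoxa2 to 56.2% for Serpinf2. At the other end, 67 members averaged below 1 TPM in KO at d6 and 53 had fewer than 10 reads in every KO d6 library. Sst, Gm26911, Neurod4, Hoxaas2 and Osr1 had no read in any KO d6 library. The table adds 1 read to each gene before scaling, so a gene without reads is listed above 0, and no fold is given for those 5. The table was filtered on 5 TPM in at least 3 samples, and 46 of the members met this outside the Ctrl d6 libraries, so the other genes were in the table through Ctrl d6 alone.

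**Figure D1:**
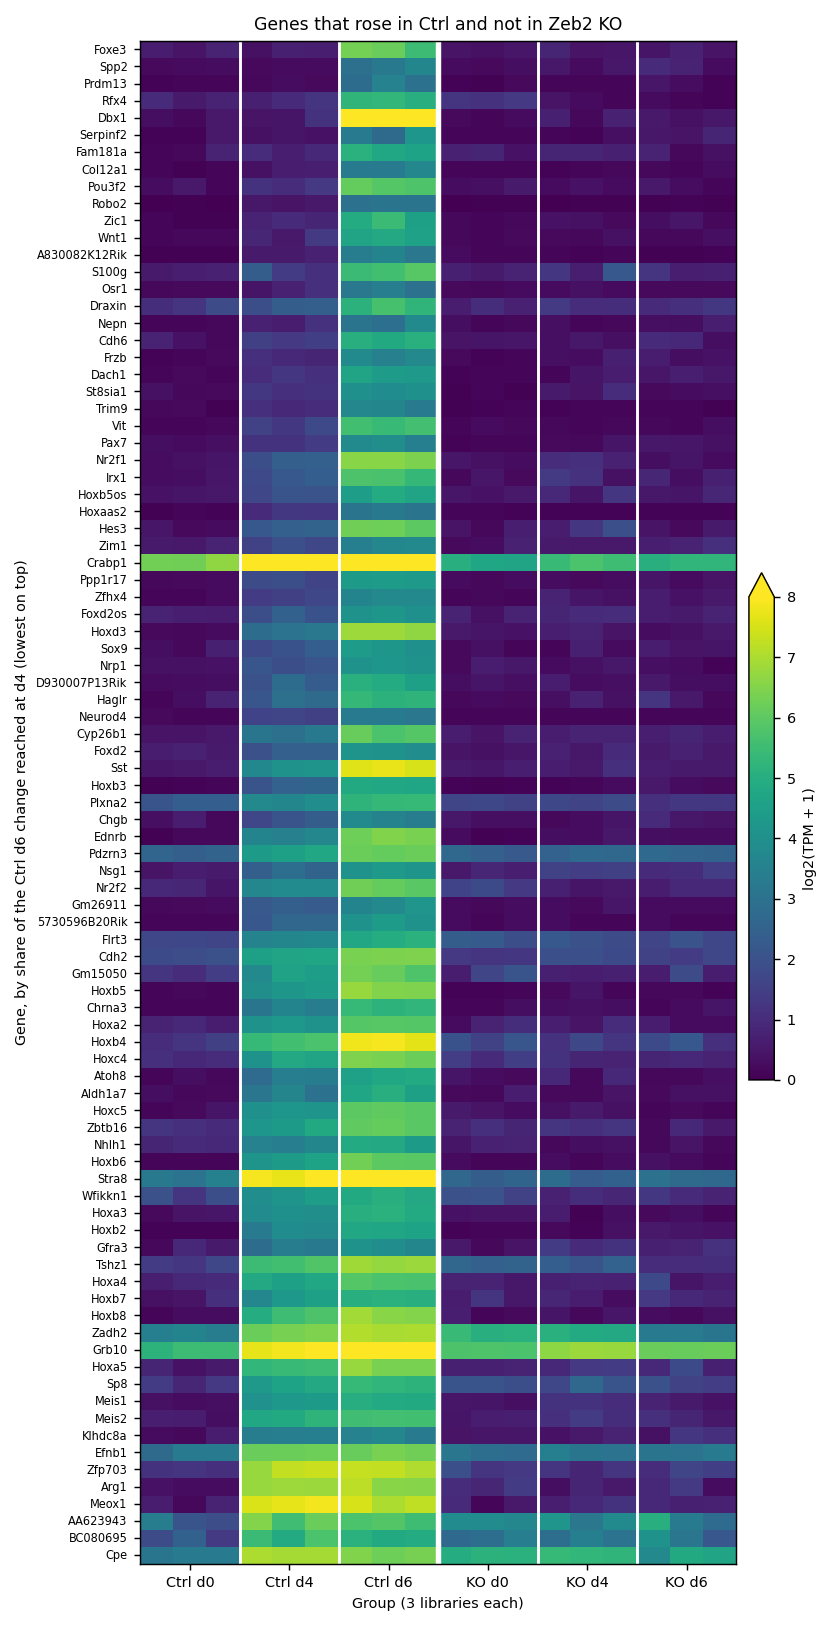
Levels of 89 of the 92 members (rows) in the 18 libraries (columns, 3 per group, replicates 1 to 3 from left to right), as log2(TPM + 1) on a colour scale that ends at 8. Rows are ordered by the share of the Ctrl difference between d0 and d6 that was reached at d4: Foxe3 and Spp2 on top were still at their d0 level at d4, while Meox1, Arg1 and Cpe at the bottom were already at or above their d6 level, and the KO columns stay dark for most rows.

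Dbx1, a homeobox gene of neural progenitors near the middle of the neural tube's dorsoventral axis, had the largest difference between Ctrl d6 and Ctrl d0, at 8.24 on the log2(TPM + 1) scale. It lies at chr7:49631499-49636849 on the minus strand (GRCm38, GENCODE M21). Dbx1 measured 0.229, 0.136 and 0.454 TPM in the 3 Ctrl libraries of d0, 0.352, 0.383 and 1.26 TPM at d4, and 417, 351 and 380 TPM at d6. In KO cells it measured 0.142, 0.114 and 0.168 TPM at d0, 0.645, 0.135 and 0.669 TPM at d4, and 0.452, 0.274 and 0.430 TPM at d6. The 3 Ctrl d6 libraries thus stood alone, and all other groups overlapped or lay close to one another near the level of a few reads. Sst, which encodes the neuropeptide somatostatin, was 193, 212 and 183 TPM in Ctrl at d6 and 0.526, 0.478 and 0.50 TPM in KO at d6. Unlike Dbx1, Sst was already at 12.3, 16 and 16.7 TPM in Ctrl at d4, while KO at d4 had 0.563, 0.472 and 1.17 TPM.

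Across the 92 genes, the difference between Ctrl d6 and Ctrl d0 had a median of 4.45 and ran from 3.00 to 8.24, and KO d6 against KO d0 had a median of 0.07 and ran from -1.96 to 0.50. The direct difference of KO from Ctrl at d6 had a median of -4.38, with Dbx1 at -8.11 and BC080695 at -1.82 as its ends. Among the genes just inside the limit of 3 for the Ctrl rise were Zim1 (3.002), Plxna2 (3.006) and Osr1 (3.022), and just outside it were Usp17la (2.996), Tmem132c (2.987) and Neurog1 (2.978). At the limit of 0.5 for KO d6, Gfra3 (0.498), Nsg1 (0.470) and Serpinf2 (0.470) were inside and Itgb8 (0.503), Ildr2 (0.512) and Scube2 (0.512) outside. At the limit of 1 for KO d4, Grb10 (0.98), Hes3 (0.87) and Gfra3 (0.82) were inside, and a single gene, Pax6 at 2.16, met both other limits and was left out by this one.

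The first test asked whether the members had already risen in Ctrl at d4, at the end of the serum phase and before retinoic acid. Of the 92 members, 84 (91.3%) were higher in Ctrl at d4 than at d0 at an adjusted p below 0.01 in limma, where 45.1% of all genes were called higher. The d4 libraries were not used in choosing the members, but the low d0 libraries were. The median difference was 2.10 on the log2(TPM + 1) scale for the members, 2.49 for the 384 other genes with a large Ctrl rise, of which 361 (94.0%) were called, and 0.26 for all genes. The 3 d4 libraries lay above the 3 d0 libraries without overlap for 86 members (93.5%), beside 51.0% of all genes. Median-ratio scaling, which moved the median of all genes from 0.26 to -0.02 and the calls over all genes from 4945 higher and 2443 lower to 3601 higher and 3683 lower, left 80 members called. The 8 genes not called higher at d4 were Dbx1, Foxe3, S100g, Fam181a, Rfx4, Serpinf2, Spp2 and Prdm13.

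The second test compared the genotypes at d4. KO was lower than Ctrl for 80 of the 92 members (87.0%) at an adjusted p below 0.01 in limma, where 32.7% of all genes were called lower, and no member was called higher, where 12.7% of all genes were. The KO d4 libraries entered the choice of members through their limit of 1 above KO d0. Both tests share the 3 Ctrl libraries of d4. For the members, KO d4 lay near KO d0 (median difference 0.09) and KO d0 near Ctrl d0 (median 0.03). The second test therefore largely mirrors the first, and passing both is not separate support. The median difference of KO from Ctrl at d4 was -1.94 for the members, -0.91 for the 384 other genes, of which 250 (65.1%) were called lower, and -0.16 for all genes. All 3 Ctrl libraries exceeded all 3 KO libraries for 87 members (94.6%), beside 45.7% of all genes. With median-ratio scaling the calls over all genes changed from 3591 lower and 1397 higher to 2335 lower and 2300 higher, and 79 members were called lower. The 12 members not called lower were Zic1, Frzb, Col12a1, Nepn, Osr1, and, among those without a called rise at d4, Dbx1, Foxe3, S100g, Fam181a, Serpinf2, Spp2 and Prdm13.

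**Figure D2:**
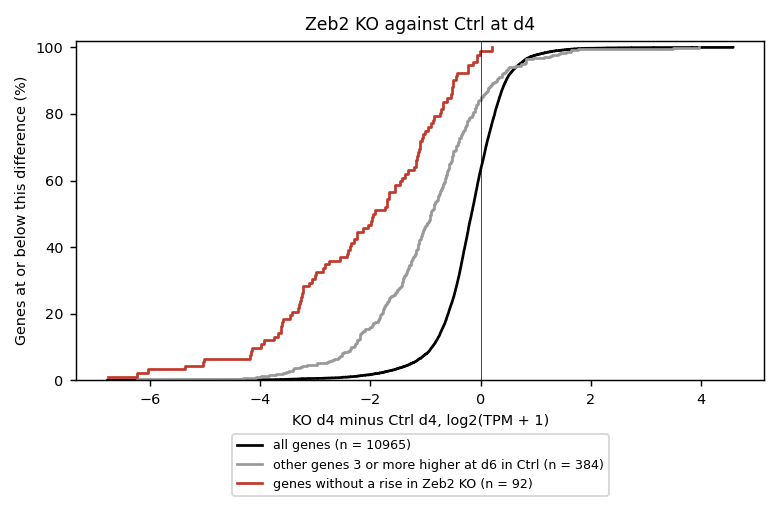
Cumulative share of genes (vertical axis, percent) by the difference of KO from Ctrl at d4 on the log2(TPM + 1) scale (horizontal axis), for the 92 members (red), the 384 other genes with a large Ctrl rise (grey) and all 10965 genes (black). The median is -1.94 for the red line, -0.91 for the grey line and -0.16 for the black line.

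The share of the Ctrl difference that was reached at d4 varied widely among the members. It was the Ctrl d4 minus d0 difference as a percentage of the Ctrl d6 minus d0 difference, both on the log2(TPM + 1) scale, and its median was 49.4% for the members and 66.9% for the 384 other genes. Since the d6 difference chose the members, these shares are a description. They also depend on the 1 added to each TPM value, which shrinks the first steps of low genes. In Ctrl at d0 the median level was 0.309 TPM for the members and 1.17 TPM for the 384 other genes. How far this made members look late was not tested. Among the members, 22 had reached less than 25% at d4, 25 between 25% and 50%, 22 between 50% and 75%, 18 between 75% and 100%, and 5 had reached 100% or more. Among the 384 other genes the shares of these bins were 7.81%, 19.3%, 39.6%, 24.7% and 8.59%.

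**Figure D3:**
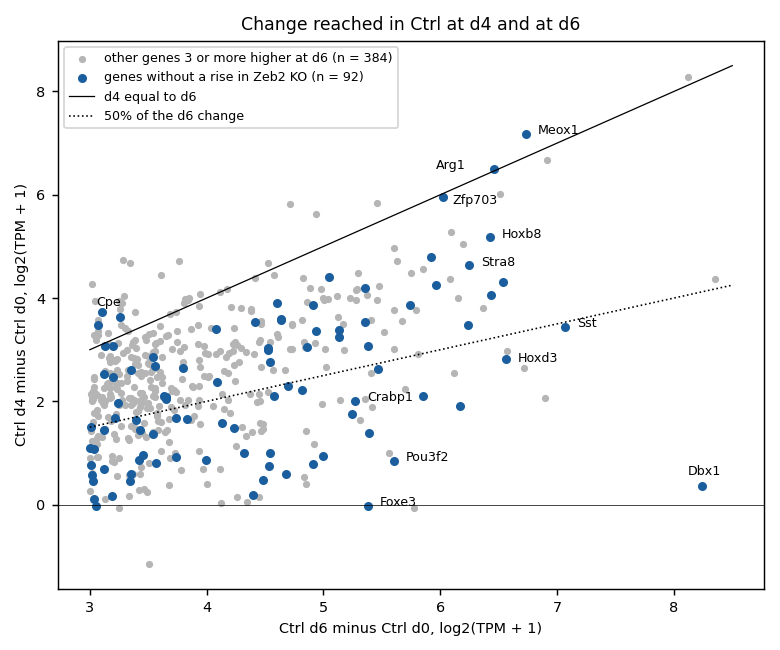
Difference of Ctrl d4 from Ctrl d0 (vertical axis) against that of Ctrl d6 from Ctrl d0 (horizontal axis), each on the log2(TPM + 1) scale, for the 92 members (blue) and the 384 other genes (grey). The solid line marks equal levels at d4 and d6 and the dotted line 50% of the d6 difference; Dbx1 lies far right at 8.24 and 0.35, whereas Meox1 lies above the solid line at 6.73 and 7.18.

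Late genes, with a share under 25%, were of several kinds. Transcription factors and signals of the patterned neural tube among them included Pou3f2, Zic1, Rfx4, Prdm13 and Wnt1. The guidance genes Robo2 and Draxin and the adhesion gene Cdh6 were late too. Others, such as S100g, St8sia1, Col12a1, Serpinf2, Nepn and Spp2, belonged to none of these kinds. Foxe3, a forkhead factor known for its role in the lens, was flat through d4, at 0.551, 0.328 and 0.731 TPM in Ctrl at d0 and 0.283, 0.616 and 0.607 TPM at d4, and then measured 79.1, 70.8 and 44.2 TPM at d6. The difference of Foxe3 between Ctrl d4 and d0 was -0.03 ± 0.20 (SE, n = 3 libraries per group), with an adjusted p of 0.89 in limma. Foxe3 had at most 1 read in each of these d0 and d4 libraries. Spp2, a secreted phosphoprotein, and Prdm13, a zinc finger gene of the dorsal spinal cord, were near 0 at d4 as well, with differences of -0.02 ± 0.20 and 0.11 ± 0.17. Spp2 had no read in any Ctrl library of d0 or d4, so its difference reflects only the read added to each gene. Pou3f2, a POU factor of neural progenitors also known as Brn2, had moved in part, from 0.214, 0.458 and 0.113 TPM at d0 to 1.23, 1.00 and 1.51 TPM at d4, a rise of 0.84 ± 0.16 (adjusted p = 0.00015), and reached 67.7, 58.0 and 54.9 TPM at d6. Its KO libraries of d4 stood at 0.181, 0.304 and 0.188 TPM, below all 3 Ctrl libraries (difference -0.87 ± 0.16, adjusted p = 0.00022).

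Early genes were at their d6 level by d4, with the serum phase just complete. Meox1, a homeobox gene of the somites, measured 0.536, 0.128 and 0.711 TPM in Ctrl at d0, 185, 209 and 229 TPM at d4, and 182, 129 and 149 TPM at d6. In KO at d4 it measured 0.605, 0.889 and 1.26 TPM, so the genotypes did not overlap, and the difference of -6.78 ± 0.20 (adjusted p = 1e-12) was the largest drop of any gene in the table. Arg1, the enzyme that splits arginine into ornithine and urea, behaved alike in time, with 109, 112 and 111 TPM in Ctrl at d4 against 0.228, 0.767 and 0.474 TPM in KO at d4 (difference -6.24 ± 0.24, adjusted p = 1.4e-11). At d6 the Ctrl libraries of Arg1 were at 145, 94.2 and 92.6 TPM, around the d4 values. Zfp703, a zinc finger corepressor, measured 109, 152 and 162 TPM in Ctrl at d4 and 1.36, 0.776 and 1.30 TPM in KO at d4 (difference -6.04 ± 0.21, adjusted p = 5e-12). Efnb1, a membrane-bound ephrin ligand, and Klhdc8a, a kelch domain protein, had reached 98.4% and 96.1% of their d6 difference by d4.

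**Figure D4:**
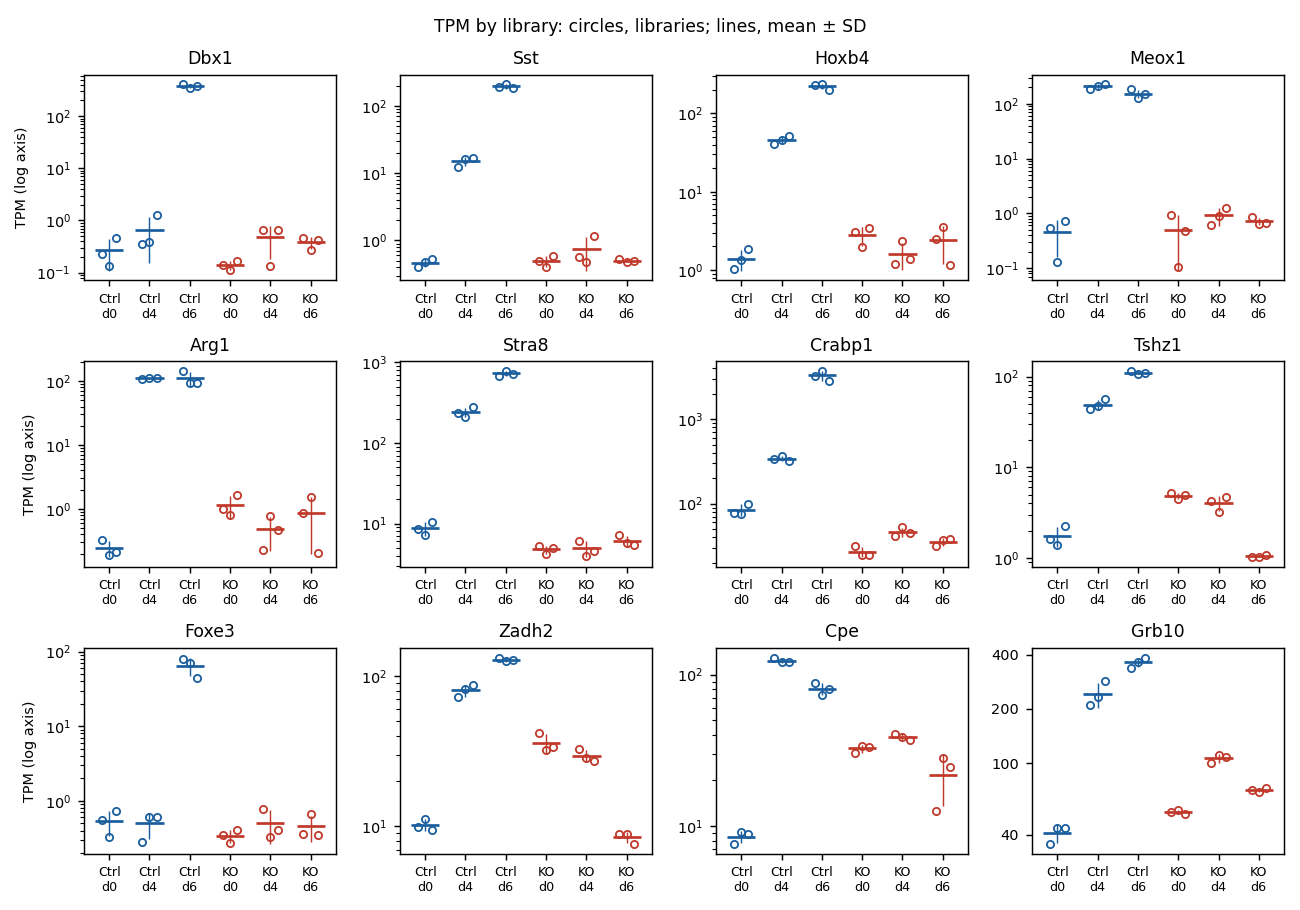
TPM of 12 members in every library (circles; log vertical axes that differ between panels), with the mean (horizontal line) and SD (vertical line) of the 3 libraries of each group, Ctrl in blue and KO in red. Dbx1 and Foxe3 are high at Ctrl d6 alone, Meox1 and Arg1 are already high at Ctrl d4, and Zadh2, Tshz1 and Cpe start from a higher level in KO.

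Hox genes formed the largest group, with 14 of the 23 described here. They were Hoxa2 to Hoxa5, Hoxb2 to Hoxb8, Hoxc4, Hoxc5 and Hoxd3, and all 14 passed both tests at d4, higher in Ctrl than at d0 and lower in KO than in Ctrl. Hoxb4, at chr11:96318267-96321638 on the plus strand, measured 1.02, 1.33 and 1.85 TPM in Ctrl at d0, 40.4, 46.4 and 51.8 TPM at d4, and 228, 234 and 201 TPM at d6. In KO it was 3.02, 1.95 and 3.43 TPM at d0, 1.18, 2.32 and 1.36 TPM at d4, and 2.46, 3.57 and 1.17 TPM at d6. The Ctrl groups of Hoxb4 were stepped and did not overlap, while the KO groups of the 3 days overlapped. The rise of Hoxb4 in Ctrl by d4 was 4.30 ± 0.24 (adjusted p = 1.5e-10), and the difference of KO from Ctrl at d4 was -4.19 ± 0.24 (adjusted p = 1.1e-09).

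The highest of these Hox members in Ctrl at d6 after Hoxb4 were Hoxd3, Hoxb8, Hoxb5 and Hoxa5. Hoxd3 was 113, 113 and 101 TPM in Ctrl at d6 but only 6.13, 7.31 and 8.29 TPM at d4, which was 43.0% of its log2 difference. Hoxb8 by contrast was at 29.7, 45.2 and 53.7 TPM in Ctrl at d4 and at 117, 93.9 and 90.6 TPM at d6, 80.7% of the difference. For Hoxb5 the Ctrl d6 libraries had 108, 89.1 and 86.4 TPM and the KO d6 libraries 0.135, 0.122 and 0.0640 TPM, while Hoxa5 measured 108, 82.9 and 83.1 TPM against 0.839, 2.44 and 0.639 TPM. Over the 14 genes the share reached at d4 ran from 43.0% for Hoxd3 to 81.1% for Hoxa5.

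**Figure D5:**
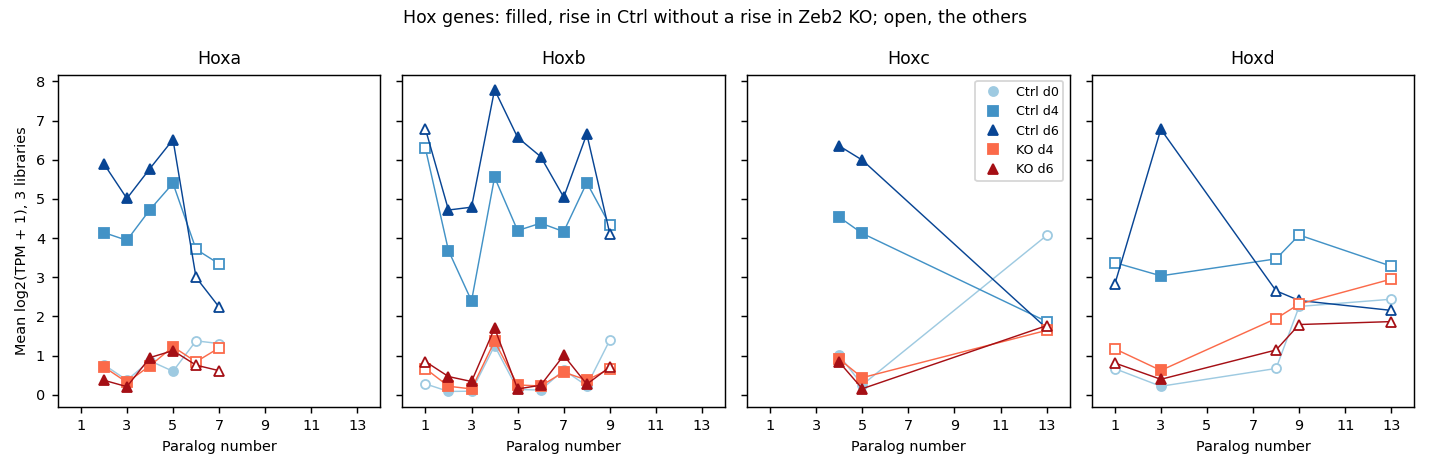
Mean log2(TPM + 1) over 3 libraries (vertical axis) of 23 Hox genes by paralog number (horizontal axis), in Ctrl at d0, d4 and d6 (blue) and in KO at d4 and d6 (red). Filled symbols are 14 members and open symbols 9 other genes, and lines join the genes drawn of a cluster. The filled symbols of the 4 clusters lie between paralogs 2 and 8, and at paralogs 9 and 13 the open Ctrl d6 symbols are at or below the Ctrl d4 symbols.

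The 9 other Hox genes were Hoxa6, Hoxa7, Hoxb1, Hoxb9, Hoxc13, Hoxd1, Hoxd8, Hoxd9 and Hoxd13. In Ctrl at d4, 8 of them were called higher than at d0 and 1, Hoxc13, lower (45.1% and 22.3% of all genes were), and 7 were called lower in KO than in Ctrl at d4 (32.7% of all genes were). Hoxb1 rose as far as the members in Ctrl, with group means of 0.214 TPM (d0), 77.3 TPM (d4) and 109.8 TPM (d6). It was left out because its KO mean went from 0.144 TPM to 0.802 TPM, a log2 difference of 0.65. Hoxa6 lies among the Hoxa members and had means of 12.1 TPM in Ctrl at d4 and 7.07 TPM at d6, under the d6 limit. Meis1 and Meis2, which bind DNA together with Hox proteins, were the 2 members among 9 TALE family genes in the table. Meis2 measured 26.4, 28.0 and 35.6 TPM in Ctrl at d4 against 1.12, 1.70 and 1.04 TPM in KO, and both genes passed both tests.

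Noncoding genes beside the Hox clusters were members too. Hoxb5os lies among the Hoxb genes, Hoxaas2 and Gm15050 among the Hoxa genes, Haglr next to Hoxd3 and D930007P13Rik near Hoxc4. The gene 5730596B20Rik, also among the Hoxa genes, carries the biotype protein coding. Haglr was at 39.5, 34.3 and 35.7 TPM in Ctrl at d6 and at 1.37, 0.453 and 0.119 TPM in KO at d6. Whether reads were counted by strand is not given in the sources used here, so reads of an antisense gene and of its overlapping partner may not be told apart. Of the 92 members, 83 carried the biotype protein coding, 3 antisense, 3 lincRNA, 2 processed transcript and 1 unprocessed pseudogene.

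Many members lay close to one another on the genome, which the rule did not use. With starts no more than 200 kb apart (GENCODE M21), 30 of the 92 members fell into 8 neighbourhoods. The Hoxa and Hoxb neighbourhoods were the largest, with 8 members each. Between the Hoxb members, at chr11:96281905-96354012, the single other table gene was Gm11536. Outside the Hox clusters, Nr2f1 and the antisense gene A830082K12Rik had starts 1.74 kb apart on chromosome 13, Tshz1 and Zadh2 0.357 kb apart on chromosome 18, Foxd2, Foxd2os and Foxe3 spanned 17.1 kb on chromosome 4, and Pdzrn3 and Gm26911 shared a stretch of chromosome 6. Nr2f1 and Pdzrn3 overlap their noncoding partners on the opposite strand, so the reads of these pairs may not be told apart. Neighbours did not always move in step. Foxd2 was at 2.94, 4.43 and 4.46 TPM in Ctrl at d4 against 0.553, 0.658 and 0.489 TPM at d0, a rise of 1.64 ± 0.16 (adjusted p = 8.1e-08), where Foxe3 was flat.

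Retinoic acid genes gave 3 members of the 21 in the table, Crabp1, Stra8 and Cyp26b1, and all 3 passed both tests at d4. Crabp1, which binds retinoic acid in the cytoplasm, was by far the most abundant member. It measured 77.4, 75.9 and 100.3 TPM in Ctrl at d0, 338, 368 and 319 TPM at d4, and 3292, 3751 and 2846 TPM at d6. In KO it measured 31.6, 24.9 and 24.6 TPM at d0, 41.2, 52.6 and 44.5 TPM at d4, and 31.4, 37.5 and 37.7 TPM at d6. KO was below Ctrl without overlap on all 3 days, and at d4 the difference was -2.87 ± 0.13 (adjusted p = 9.5e-11). Stra8, a retinoic acid responsive gene known from germ cells entering meiosis, was 238, 210 and 277 TPM in Ctrl at d4 and 684, 789 and 728 TPM at d6, against 6.17, 4.01 and 4.57 TPM and 7.17, 5.77 and 5.37 TPM in KO. At d4 Stra8 in KO differed from Ctrl by -5.37 ± 0.15 (adjusted p = 5.1e-13). Cyp26b1, which degrades retinoic acid, had 7.57, 6.80 and 8.48 TPM in Ctrl at d4 and 70.1, 52.4 and 58.8 TPM at d6, while the KO libraries of these days lay between 0.554 and 0.764 TPM. Of the 18 other genes of this list, 14 were called higher and 2 lower in Ctrl at d4 than at d0, beside 45.1% and 22.3% of all genes. Between the genotypes at d4, 13 of the 18 were called lower in KO and none higher, beside 32.7% and 12.7% of all genes.

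Neural progenitor factors gave 12 members of 35 in the table, Pax7, Dbx1, Irx1, Zic1, Hes3, Rfx4, Nr2f1, Nr2f2, Pou3f2, Sp8, Tshz1 and Zfp703. Both tests were passed by 9 of them. Dbx1 passed neither, Zic1 was not called between the genotypes, and Rfx4 was not called between the days in Ctrl. Nr2f1, an orphan nuclear receptor of the COUP-TF family, measured 2.80, 4.31 and 4.47 TPM in Ctrl at d4 and 93.9, 95.4 and 85.1 TPM at d6. Its KO libraries were at 1.02, 1.14 and 0.655 TPM at d4 and 0.227, 0.371 and 0.173 TPM at d6, so that the small KO difference from d0 at d4, 0.58, was not there at d6. Hes3, a repressor of the Notch target family, showed the same course in KO, with 0.553, 1.39 and 2.87 TPM at d4 and 0.344, 0.157 and 0.491 TPM at d6, against 76.5, 74.1 and 62.1 TPM in Ctrl at d6. The KO d4 libraries of Hes3 were the most spread of these, and the difference from Ctrl was -1.13 ± 0.25 (adjusted p = 0.0011).

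Rfx4, a winged helix factor of the brain midline, and Nr2f2, the second COUP-TF receptor, were lower in KO at later days than in KO at d0. Rfx4 was 1.30, 1.20 and 1.5 TPM in KO at d0, 0.332, 0.186 and 0.0765 TPM at d4 and 0.172, 0.0939 and 0.0655 TPM at d6, with no overlap between d0 and the later days. In Ctrl it went from 0.993, 0.497 and 0.727 TPM at d0 to 0.645, 0.963 and 1.35 TPM at d4, a difference of 0.19 ± 0.16 (adjusted p = 0.3), and then to 36.5, 38.3 and 31.8 TPM. Zic1, a zinc finger gene of the dorsal neural tube, rose in Ctrl by 0.79 ± 0.18 at d4 (adjusted p = 0.00092). Its Ctrl libraries of 0.682, 0.988 and 0.791 TPM lay above the KO libraries of 0.312, 0.294 and 0.162 TPM, but the difference of -0.53 ± 0.18 had an adjusted p of 0.019, above the threshold of 0.01. Of the 23 other genes of this list, 15 were called higher and 4 lower in Ctrl at d4 than at d0, beside 45.1% and 22.3% of all genes. Between the genotypes at d4, 14 of the 23 were called lower and 2 higher in KO, beside 32.7% and 12.7% of all genes.

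Of the neurogenic and neuronal genes, 3 of the 25 described here were members, and all 3 passed both tests. Nhlh1, whose promoter is shown above, was at 10.7, 9.64 and 11.6 TPM in Ctrl at d4 and 28.6, 27.3 and 19.7 TPM at d6, against 0.137, 0.230 and 0.284 TPM and 0.128, 0.349 and 0.122 TPM in KO. At d4 the genotypes differed by -3.26 ± 0.15 (adjusted p = 1.3e-10). Neurod4, a proneural factor, had no read in any KO library of d4 or d6 and measured 8.98, 8.89 and 7.99 TPM in Ctrl at d6. Nsg1, a protein of neuronal endosomes, went up in KO from 0.462, 0.820 and 0.606 TPM at d0 to 1.92, 1.75 and 1.87 TPM at d4. In KO at d6 it was at 0.977, 1.08 and 1.75 TPM, and its difference from KO d0, 0.47, was close to the KO d6 limit. The 22 other genes of this list were mixed. In Ctrl at d4, 18 were called higher and 1 lower than at d0, beside 45.1% and 22.3% of all genes. Between the genotypes at d4, 9 were called lower and 5 higher in KO, beside 32.7% and 12.7% of all genes.

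Guidance and adhesion genes gave 8 members of 37, Robo2, Nrp1, Plxna2, Efnb1, Draxin, Flrt3, Cdh2 and Cdh6, and all 8 passed both tests. Cdh2, the cadherin of the neural epithelium, had 22.5, 24.7 and 25.3 TPM in Ctrl at d4 and 2.90, 2.85 and 2.51 TPM in KO, a difference of -2.75 ± 0.10 (adjusted p = 1.3e-11). Efnb1 had 71.0, 73.1 and 74.3 TPM in Ctrl at d4 against 9.95, 7.59 and 7.23 TPM in KO, where its d0 libraries had 7.91, 6.38 and 5.97 TPM. Robo2 was the lowest of the group, with 0.414, 0.329 and 0.465 TPM in Ctrl at d4 and 6.96, 7.53 and 7.44 TPM at d6. Its rise of 0.46 ± 0.12 by d4 (adjusted p = 0.0025) was small on this scale, on which 1 is added to each TPM value and changes of low genes are understated. Without replicate 3 of Ctrl at d4, the adjusted p of Robo2 between the genotypes was 0.016, and without replicate 1 of Ctrl at d0 that of the Draxin rise was 0.013. Such calls were not particular to the members. Among the 29 other genes of this list, 22 were called higher and 2 lower in Ctrl at d4 than at d0 (45.1% and 22.3% of all genes were). In KO at d4, 23 were called lower and 2 higher than in Ctrl (32.7% and 12.7% of all genes were).

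Lists of other cell types held members as well, where 0.839% of all genes in the table were members. Sox9 and Ednrb, 2 of 12 neural crest markers, passed both tests, and Ednrb, the endothelin B receptor, was at 74.9, 88.2 and 82.5 TPM in Ctrl at d6 and 0.220, 0.20 and 0.209 TPM in KO. They did not stand for their list. Of the 10 other crest markers, 3 were called higher and 2 lower in Ctrl at d4 than at d0, beside 45.1% and 22.3% of all genes. Between the genotypes at d4, 6 of the 10 were called lower and 1 higher in KO, beside 32.7% and 12.7% of all genes. The mesoderm list gave Meox1 and Osr1 (2 of 16) and the extracellular matrix list Col12a1 (1 of 29). Osr1, a zinc finger gene of the intermediate mesoderm, and Col12a1, a fibril-associated collagen, passed the first test and not the second, with adjusted p of 0.017 and 0.018 between the genotypes. Their rise in Ctrl was close to the threshold. Without replicate 3 of Ctrl at d4, its adjusted p was 0.031 for Osr1 and 0.033 for Col12a1. No member came from the 7 tail bud, 7 vascular and blood, 9 fibroblast, 11 trophectoderm and 23 pluripotency genes in the table.

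Markers of other cell states also differed between the genotypes at d6. The summed level of all 23 pluripotency and epiblast genes was 2227 to 2378 TPM in the Ctrl d6 libraries and 7306 to 7856 TPM in the KO d6 libraries, after 9619 to 10015 TPM and 9332 to 10205 TPM at d0, and 18 of the 23 were called higher in KO at d6, where 17.9% of all genes were. The 23 endoderm markers described here summed to 1610 to 2516 TPM in Ctrl at d6 and 503 to 730 TPM in KO, and the 16 mesoderm markers to 293 to 342 TPM and 106 to 124 TPM. Trophectoderm markers summed to 1289 to 1937 TPM in Ctrl and 1122 to 2161 TPM in KO at d6, which overlapped, and fibroblast markers to 242 to 391 TPM and 483 to 1040 TPM. These sums did not show the direction of most single genes. The median difference of KO from Ctrl at d6 was -0.83 for the 11 trophectoderm and -1.15 for the 9 fibroblast markers, beside -0.14 for all genes. None of the trophectoderm and 3 of the fibroblast markers were called higher in KO. No gene of these lists was under 10 reads in all libraries. The part of such differences in the state of the cells in the result for the members was not tested.

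The remaining 42 members were in none of these lists. Some encode neuronal or secretory proteins, such as Sst, the nicotinic receptor subunit Chrna3, the granule protein Chgb and the prohormone-processing enzyme Cpe. Others act in signalling, such as Wnt1, the secreted Wnt inhibitor Frzb, the neurotrophic co-receptor Gfra3 and the adaptor Grb10, or in transcription, such as Zbtb16, Atoh8, Dach1, Zfhx4 and Prdm13. Chrna3 was at 7.55, 11.3 and 9.35 TPM in Ctrl at d4 and 39.7, 34.7 and 37.6 TPM at d6, and its KO libraries of these days lay between 0.101 and 0.384 TPM. Wnt1, a ligand of the midbrain and the dorsal neural tube, measured 24.3, 27.6 and 22.8 TPM in Ctrl at d6 and at most 0.252 TPM in KO at d6. Vit, a matrix protein, was at 46.8, 40.8 and 48.2 TPM in Ctrl at d6 and between 0.105 and 0.220 TPM in KO at d6. The unprocessed pseudogene AA623943 and BC080695 were the most variable of the early genes, with 90.9, 46.0 and 71.3 TPM and 42.9, 28.9 and 52.8 TPM in Ctrl at d4. Replicate 1 of KO at d6 was the highest of its group for both, at 32.0 TPM beside 8.90 and 5.92 TPM for AA623943 and at 16.2 TPM beside 7.83 and 3.55 TPM for BC080695, and such short reads may be shared with similar copies.

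Most members were near 0 in KO cells throughout, but some were expressed there. In 56 members the KO group mean was below 1 TPM on all 3 days, whereas 9 members averaged at least 5 TPM in KO at d6. The 5 with the highest KO level at d0 were Grb10, Zadh2, Cpe, Crabp1 and AA623943. Grb10, an imprinted adaptor of insulin-type receptors, measured 53.3, 54.7 and 52.1 TPM in KO at d0, 99.8, 111 and 108 TPM at d4 and 70.7, 69.3 and 72.8 TPM at d6. In Ctrl it went from 35.3, 43.4 and 43.8 TPM over 209, 232 and 284 TPM to 338, 366 and 383 TPM. KO groups of Grb10 therefore did not overlap one another, and at d4 KO differed from Ctrl by -1.17 ± 0.10 (adjusted p = 7.7e-08). A KO level at d4 at least 0.5 above d0 was seen in 12 members in all, which also held Nr2f1, Hes3, Crabp1, Irx1, Meis1, Meis2 and Cdh2.

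Zadh2 and Tshz1, the close neighbours on chromosome 18, began higher in KO and then went down there. Zadh2, a prostaglandin reductase, was at 41.7, 32.1 and 33.7 TPM in KO at d0, 32.5, 28.4 and 27.4 TPM at d4, and 8.92, 8.88 and 7.58 TPM at d6. Ctrl took the opposite course, from 9.93, 11.2 and 9.44 TPM to 72.6, 81.5 and 87.0 TPM and then 133, 125 and 128 TPM. Tshz1, a zinc finger homeobox gene, was at 5.17, 4.51 and 4.90 TPM in KO at d0 and 1.02, 1.04 and 1.09 TPM at d6, and at 1.64, 1.39 and 2.24 TPM in Ctrl at d0 and 116, 106 and 111 TPM at d6. Of the 92 members, 7 had dropped in KO by more than 0.5 between d0 and d6 (among them Nr2f2, Tshz1, Rfx4, Zadh2, Wfikkn1 and Cpe). At d4 in Ctrl, Cpe was at 130, 121 and 121 TPM and exceeded its d6 libraries of 88.0, 73.5 and 81.0 TPM, so it had passed its d6 level, and its KO libraries of d0 were at 30.2, 34.0 and 33.4 TPM where Ctrl had 7.55, 9.13 and 8.80 TPM.

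At d0, before differentiation, the genotypes differed little for most members, but most were near the floor. Of the 92, 70 averaged below 1 TPM in Ctrl and 69 in KO. Genes of such low level can differ little on the log2(TPM + 1) scale. The median difference of KO from Ctrl was 0.03 for the members and -0.07 for all genes. The KO libraries lay above the Ctrl libraries without overlap for 17 members, beside 19.9% of all genes, and below them for 11 members, beside 31.5% of all genes. The largest differences were 1.82 for Cpe and 1.71 for Zadh2 upward and -1.61 for Crabp1 downward. Over all genes, the median difference at d0 was 0.33 on chromosome 8 and 0.36 on chromosome 12, whereas the other chromosomes lay between -0.17 and 0.08. This was seen at d0 only. On chromosome 8 the median was -0.20 at d4 and -0.15 at d6, and on chromosome 12 it was -0.18 on both days. The part of the d0 shift in the members' values was not tested. The members on these chromosomes were Nrp1, Cpe and Zfp703 on chromosome 8 and Trim9, Osr1, Sp8 and Fam181a on chromosome 12. Chromosomes 6 and 11, which hold the Hoxa and Hoxb clusters, had 15 members each. The d0 libraries of both genotypes entered the choice of members, so these values are given without a test.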

How the data were processed

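Total RNA of 18 cultures was sequenced as single reads of 36 bp. The authors aligned the reads to GRCm38 with TopHat2 2.0.13, counted them with featureCounts 1.4.6 and deposited TPM values, after removing short noncoding genes, genes without 5 TPM in at least 3 samples and the 20% least variable genes, and their own tests used DESeq2. The deposited table has 11046 rows and 10965 genes, and the first of 81 repeated rows was kept. It also holds 3 columns of a variability score that the authors computed over all libraries, which were not used.

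TPM values were taken as log2(TPM + 1), and groups followed the sample titles. Limma 3.58.1 (R 4.3.3) fitted the 6 group means over all genes with an intensity trend, and Benjamini-Hochberg adjusted p-values below 0.01 were called. The fits were tested on simulated data with 200 changed genes, of which 98.5% were recovered in each comparison. Reads were recovered by finding, for each gene, the scale at which its 18 values become whole numbers within a tolerance of 1e-06, which succeeded for all 10965 genes. Totals per library had a median of 12131165, and a low total widens the error of genes with few reads. Positions came from GENCODE M21.

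Members and lists were chosen with earlier results of these data known. The genes named with values are Zeb2, the 20 members with the largest Ctrl rise, at most 6 list members each of highest Ctrl d6 level, the genes nearest to each limit, the 5 members highest in KO at d0, those with the largest and smallest share reached at d4, and neighbours within 200 kb. A few genes are not reported here and were left out of the list counts, single-gene values and named figure rows, but not of the 92 members. Chrna3, Wnt1 and a few of the list members with particular time courses were named after their values were seen. The alternatives covered the pseudocount, scaling, filter, model, threshold and each library left out.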

Additional observations from a re-analysis of the deposited data

How the results depend on the processing

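The rule gave 92 genes, 87 with a pseudocount of 0.1, 79 with median-ratio or quantile scaling, and 89 to 94 with any 1 library left out. It gave 44 with a pseudocount of 5 and 39 among genes of mean TPM of at least 10, both of which act against genes of low level by construction. Of those 39 genes, 37 were called higher in Ctrl at d4 than at d0 and 37 lower in KO than in Ctrl at d4. Under that filter 43.7% and 33.4% of all genes were called. Under the other settings the counts of called members were 66 to 86 for the rise in Ctrl (main 84) and 66 to 85 for the genotypes at d4 (main 80), lowest with quantile scaling, and 80 to 84 and 75 to 83 with a library left out. The share of all genes called moved as well. It was 31.7% and 20.8% with quantile scaling and 49.2% and 40.8% at an adjusted p below 0.05. With a log2 difference above 1 also required, it was 21.2% and 7.58%. With a library left out it was 42.2% to 45.8% and 26.9% to 34.9%. Voom on the recovered reads called 84 and 80 (40.9% and 26.3% of all genes). The replicate block called 84 and 81 (44.5% and 31.9% of all genes), with Frzb the 1 call gained. Deviations of same-numbered libraries from their group means correlated at 0.079 to 0.188 between Ctrl d0 and Ctrl d4 (others -0.215 to 0.045) and at 0.047 to 0.231 between Ctrl d4 and KO d4 (others -0.198 to 0.027). Each library thus correlated best with its own number, a hint of pairing from the data, but not every pair passed 0.1 in these comparisons and no source says what a number shares, so the fit without the block was kept.

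Of 3818 values of 72 named genes, 3723 kept their direction and side of the threshold, 66 were no longer called, 12 were newly called and 17 reversed. For the Ctrl rise at d4, quantile scaling reversed Rfx4 (-0.70, adjusted p = 0.0016), Dbx1 (-0.29), Serpinf2 (-0.22), Prdm13 (-0.12) and Osr1 (-0.021); this scaling sets libraries to 1 distribution, and the cause was not tested. For KO against Ctrl at d4 it reversed Dbx1 (0.20), Prdm13 (0.081) and Foxe3 (0.35), and median-ratio scaling reversed Foxe3 (0.055). With 1 library left out, Foxe3 ranged from -0.13 to 0.077 for the Ctrl rise and from -0.13 to 0.081 between the genotypes, and Dbx1 from -0.27 to 0.095 between the genotypes, all near 0. Members with few reads are the least certain: 16 had no read in the Ctrl d0 libraries and 5 none in the KO d4 libraries, so their log2 differences depend on the pseudocount.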
